A study of Mus musculus with 34 samples.

Results

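Translational efficiency (TE) in the mouse hippocampus was compared between mice taken 4 h after contextual fear conditioning and unstimulated controls. TE is the ribosome footprint signal (RPF) of a gene set against its RNA signal, computed here as log2 of (RPF + 1) over (RNA + 1). Within each replicate number, the control value was subtracted from the 4 h value, which gave 3 TE changes per gene. All genes with a mean signal of at least 1 over the 15 footprint libraries and over the 15 RNA libraries were taken, 7103 of the 11531 genes in the tissue tables.

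Both groups were hippocampi of C57BL/6N mice. The controls are labelled as without stimulus. The 4 h group was caged singly, handled daily, placed in a conditioning chamber, given a foot shock and killed 4 h later. Each group had 3 footprint and 3 RNA libraries, and the groups at 5, 10 and 30 min, with 3 of each kind as well, shared the same controls. The labels do not say if each replicate was its own mouse or a pool, so the p-values below rest on sample-to-sample spread alone, and that spread may be technical. The protocol text, attached to every tissue sample, says that all mice were conditioned, and the sample labels were followed for the controls. Tissue was lysed with cycloheximide, a drug that stops elongating ribosomes on the mRNA.

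A footprint is the stretch of mRNA that a ribosome shields from nuclease. Footprints that follow the RNA of their gene leave TE as it was, whereas footprints that change without the RNA, or RNA that changes without footprints, move it. mRNAs for ribosomal proteins and elongation factors carry a terminal oligopyrimidine (TOP) tract at their 5′ end, through which the mTOR kinase controls their translation, and they are the class best known for changes of TE without changes of RNA. In the hippocampus, protein synthesis in the hours after training is known to be needed for lasting memory.

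The libraries of control and 4 h held 14240563 to 26684327 footprint reads and 16814796 to 23392418 RNA reads on the listed genes, and the median gene held 416 to 772 and 517 to 742 reads. The shallowest was the 4 h footprint library with number 2. The 4 h footprint library correlated with its own control at 0.9981, 0.9905 and 0.9977 for numbers 1, 2 and 3 across the genes tested, and with the most alike of the other controls at 0.9814, 0.9904 and 0.9858. For number 2 the own control was thus hardly closer than another. Genes of the choroid plexus, which secretes cerebrospinal fluid, had uneven signal across numbers. The summed footprint signal of the 13 tested was 2161, 1958 and 192.5 in the controls and 1606, 959 and 78.96 at 4 h. How much of that tissue each sample held was not tested. Hippocampal marker genes passed the filter for 9 of 10 CA1 genes, 7 of 11 CA3 genes and 8 of 13 dentate granule genes, beside 7103 of all 11531 genes. The CA3 and dentate shares were near that of all genes, so they do not mark the tissue.

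No gene passed the test for a TE change at 4 h. Of 7103 genes, 0 passed an adjusted p of 0.05 (0.0%) in limma's test with Benjamini-Hochberg adjustment, and 44 had an unadjusted p under 0.05. With the replicate number as a block, 0 passed again (0.0%), with 451 under an unadjusted 0.05 and a smallest adjusted p of 0.725. A limma fit of the 15 per-sample TE values with the block also called 0 (0.0%), with 847 under an unadjusted 0.05 and a smallest adjusted p of 0.189. If no gene changed, a share of about 0.05 of the 7103 would fall under that value. The fit without the block, which leaves out the pairing of the numbers, gave fewer, and both fits with it gave more. Genes are not independent, so these counts are no test. The median standard error of a TE change was 0.12 without the block and 0.07 with it, on the log2 scale. Mean TE changes ran from -0.34 to 0.26 and none passed, so true changes well above a standard error could have been missed.

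Footprints and RNA taken separately gave few calls. Without the block, limma called 0 genes in footprints (0.0%, 47 at an unadjusted p under 0.05) and 0 in RNA (0.0%, 117). With the block it called 3 in footprints (0.0422%) and 2 in RNA (0.0282%). These 5 genes are described first, because they are the only ones at 4 h whose footprints or RNA passed a test, and their TE is the question.

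Fabp7, a fatty acid binding protein of radial glia and astrocytes, fell in footprints. Its footprint signal was 3.83, 4.31 and 5.30 in controls 1, 2 and 3 and 2.81, 3.29 and 3.35 at 4 h, so the groups did not overlap. Its RNA signal was 2.86, 2.78 and 3.02 in the controls and 2.30, 2.69 and 2.57 at 4 h, also without overlap. Footprints fell by 0.39 ± 0.06 (log2 change ± SE, n = 3 pairs) with limma's adjusted p = 0.00649 under the block, and RNA was lower by a change of -0.14. The log2 TE was 0.32, 0.49 and 0.65 in the controls and 0.21, 0.22 and 0.29 at 4 h. The TE change of -0.25 ± 0.12 (SD, n = 3) had 1 direction in every pair, and its adjusted p under the block was 0.725.

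Mfsd2a, the brain's carrier for docosahexaenoic acid across the vessel wall, rose in footprints. The footprint signal was 2.01, 1.45 and 1.77 in the controls and 2.78, 2.13 and 2.24 at 4 h. Its RNA signal was 0.949, 0.801 and 1.03 in the controls and 1.13, 0.996 and 1.28 at 4 h, and these ranges overlapped. The footprint change was 0.30 ± 0.05 (log2, SE) with adjusted p = 0.0211 in limma with the block, beside an RNA change of 0.15. Its TE changes of 0.21, 0.20 and 0.06 in pairs 1, 2 and 3 were all above 0, with an adjusted p of 0.778 under the block.

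Klf6, a zinc finger transcription factor of the immediate-early class, was the third gene called in footprints. In footprints it stood at 1.5, 1.42 and 1.48 in the controls and 1.77, 1.84 and 1.90 at 4 h, without overlap. The change was 0.20 ± 0.04 (log2, SE; limma adjusted p = 0.0459 with the block). The RNA moved by 0.13, from 3.95, 3.63 and 3.75 to 4.28, 4.13 and 4.21, and the TE change was 0.08 ± 0.02 (SD, n = 3), with an adjusted p of 0.886.

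Kcnj2, the inward rectifier potassium channel Kir2.1, and Prex2, an exchange factor for Rac, rose in RNA. The RNA signal of Kcnj2 was 1.89, 1.58 and 1.69 in the controls and 2.69, 2.49 and 2.23 at 4 h, a change of 0.35 ± 0.05 (log2, SE; limma adjusted p = 0.00104 with the block). Its footprint signal was 1.21, 0.811 and 1.01 in the controls and 1.39, 1.35 and 1.15 at 4 h, a change of 0.20, so the RNA difference was the larger. The log2 TE of Kcnj2 was lower in all pairs, by changes of -0.24, -0.06 and -0.16, with an adjusted p of 0.749 in limma with the block. The direction in pair 2 rests on the 1 added to each signal. Without it, footprints there rose by a larger factor (0.811 to 1.35) than RNA (1.58 to 2.49). The RNA of Prex2 was 16.7, 12.3 and 13.7 in the controls and 18.3, 15 and 16.7 at 4 h (0.22 ± 0.04, log2, SE; adjusted p = 0.0313 with the block), and its footprints changed by 0.17. Prex2 had TE changes of 0.09, -0.10 and -0.14, which differed in sign between pairs.

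Each of these 5 calls needed at least 1 particular pair. Without pair 1, 0 of the 5 passed under the block, with adjusted p-values of 0.0866 for Fabp7, 0.619 for Mfsd2a, 0.619 for Klf6, 0.484 for Kcnj2 and 0.484 for Prex2. Without pair 2, Fabp7 (0.00846), Mfsd2a (0.0107) and Kcnj2 (0.00458) passed, whereas Klf6 (0.313) and Prex2 (0.103) did not. Without pair 3, Kcnj2 alone passed (0.0314), beside 0.183 for Fabp7, 0.180 for Mfsd2a, 0.290 for Klf6 and 0.319 for Prex2.

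**Figure D1:**
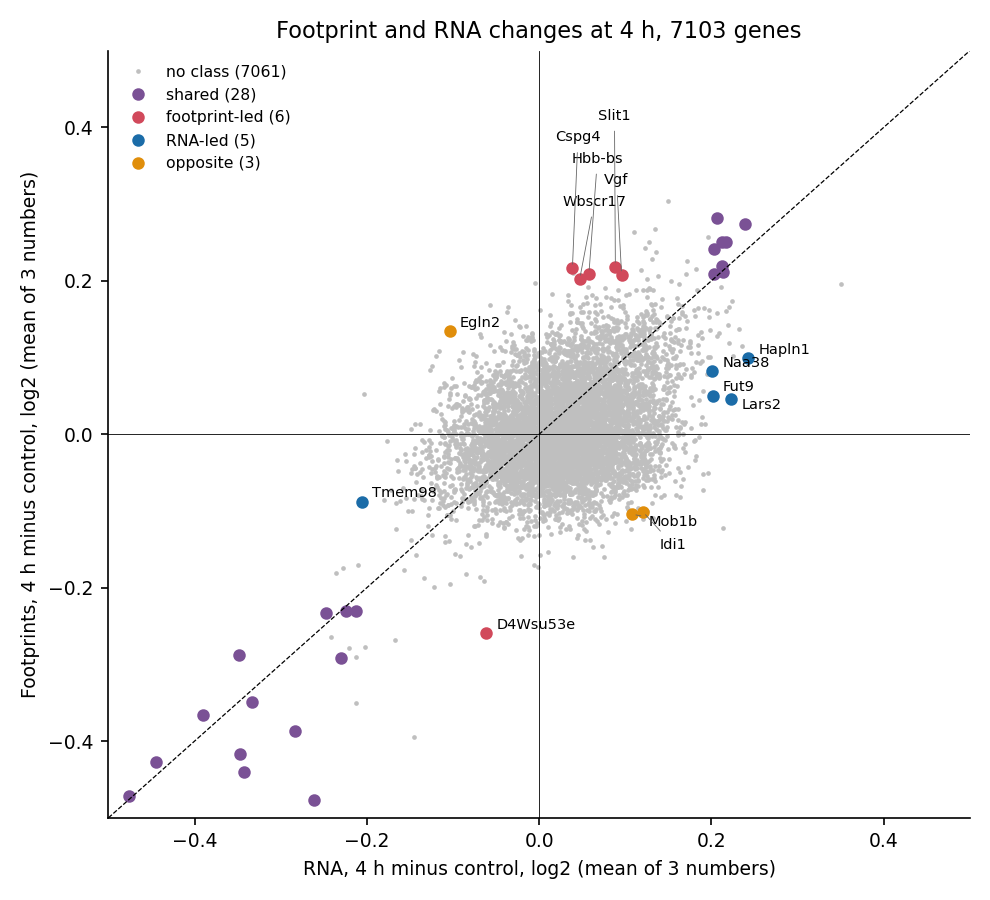
Mean footprint change (y) against mean RNA change (x) at 4 h, log2, 4 h minus control over 3 replicate numbers. Each point is 1 gene, the dashed line marks equal changes and colours mark the classes of the text; 7 genes beyond 0.5 on either axis are not drawn. Most genes lie near 0, and the footprint-led (6), RNA-led (5) and opposite (3) genes lie off the dashed line.

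Across the 7103 genes the mean TE change had a median of -0.02 and a standard deviation of 0.07 on the log2 scale, and 48 genes reached 0.2 in either direction. The lowest was -0.34 and the highest 0.26. The 3 pairs did not give the same ranking of genes: across genes the TE changes of pairs 1 and 2 correlated at 0.115, those of 1 and 3 at 0.227 and those of 2 and 3 at 0.134 (n = 7103 genes, which are not independent replicates). Footprint and RNA changes correlated across genes at 0.473, 0.632 and 0.153 in pairs 1, 2 and 3. Pair 2 had the widest spread of TE changes, with a standard deviation of 0.13 beside 0.08 in pair 1 and 0.11 in pair 3.

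TE was lower in 3 of 3 pairs for 1620 genes (22.8%) and higher in 3 of 3 for 852 (12%). This balance rested on the scale of the libraries. When each library was centred on its median gene, 1079 genes were lower and 1270 higher, so the share of higher genes went from 34.5% to 54.1% of those with 1 direction. The log2 TE values of the 4 h group lay wholly below those of the controls for 285 genes (4.01%) and wholly above for 144 (2.03%).

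Both kinds entered the TE differences. Of the 1620 genes with lower TE in 3 of 3 pairs, RNA was higher in 3 of 3 for 863 (53.3%, beside 28.1% of all genes tested) and footprints were lower in 3 of 3 for 376 (23.2%, beside 9.71%). Both held for 141. Of the 852 with higher TE, footprints were higher in 3 of 3 for 334 (39.2%, beside 13.9%), RNA was lower in 3 of 3 for 249 (29.2%, beside 7.9%), and both held for 46. The RNA signal enters the TE change with the opposite sign, so these shares describe how the change was made up and are no test of it, and they move with the scale of the libraries.

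Few genes had a footprint change not matched by RNA. A footprint change of at least 0.2 with 1 direction in 3 of 3 pairs and a mean RNA change under 0.1 defined footprint-led genes, and 6 of 7103 met it: Slit1, Cspg4, Hbb-bs, Vgf and Wbscr17 with higher footprints and D4Wsu53e with lower. Exchanging both kinds gave 5 RNA-led genes, Hapln1, Lars2, Fut9 and Naa38 with higher RNA and Tmem98 with lower. Among the genes whose footprints and RNA went opposite ways in every pair, 3 had a mean change of at least 0.1 in both kinds: Egln2, Idi1 and Mob1b. By contrast, 28 genes had changes of at least 0.2 in both kinds the same way. With the same controls, footprint-led genes numbered 9, 2 and 2 at 5, 10 and 30 min and RNA-led genes 3, 6 and 2. A pseudocount of 0.5 in place of 1 gave 13 footprint-led, 21 RNA-led and 9 opposite genes, so the counts depend on it.

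Cspg4 encodes NG2, a proteoglycan of oligodendrocyte precursors and pericytes. Footprint signals of this gene were 4.57, 2.32 and 2.22 in controls 1, 2 and 3 and 5.35, 2.96 and 2.71 at 4 h, and its RNA signal was 1.12, 0.899 and 0.898 in the controls and 1.20, 1.01 and 0.880 at 4 h. Number 1 was highest in both groups, so the groups overlapped although each pair was higher at 4 h. The TE change was 0.18 ± 0.04 (SD, n = 3). Slit1, a secreted axon guidance ligand, had footprint signals of 55.8, 34.4 and 39.3 in the controls and 59.2, 45.9 and 44.2 at 4 h, with RNA at 13.2, 10.0 and 9.43 and then 13.2, 11.4 and 10.1. Its TE change of 0.13 ± 0.09 was largest in pair 2.

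Hbb-bs, a beta globin of red blood cells, had footprint signals of 19.8, 23.9 and 22.7 in the controls and 23.6, 26.3 and 27.2 at 4 h. Its RNA was 15.2, 16.1 and 15.6 in the controls and 16.4, 16.1 and 16.5 at 4 h. The 3 TE changes were close together, at 0.15, 0.14 and 0.17, and the groups still overlapped because control 2 was above 4 h number 1. The part of residual blood in these values was not tested. Vgf, a neuropeptide precursor induced by activity and by BDNF, had TE changes of 0.11, 0.32 and -0.10, so its footprint change of 0.21 was not matched by 1 direction of TE. Wbscr17, a glycosyltransferase, had a TE change of 0.16 ± 0.09 (SD, n = 3).

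D4Wsu53e was the footprint-led gene with lower footprints. Its footprint signal was 3.11, 3.52 and 3.02 in the controls and 2.44, 2.60 and 2.52 at 4 h, without overlap, and its RNA was 1.62, 2.24 and 2.11 and then 1.56, 2.11 and 1.92. The TE change was -0.20 ± 0.09 (SD, n = 3), with an adjusted p of 0.725 in limma under the block.

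Among RNA-led genes, Fut9, which makes the Lewis X sugar epitope of brain glycoproteins, had RNA signals of 25.0, 19.1 and 20.4 in the controls and 27.9, 24.6 and 22.1 at 4 h. Its footprints were 7.09, 5.90 and 7.24 in the controls and 7.07, 7.05 and 6.87 at 4 h, which overlapped. The TE changes of -0.15, -0.13 and -0.17 had a narrow spread. Hapln1, a link protein of perineuronal nets, had TE changes of -0.09, -0.18 and -0.16, with RNA at 2.81, 1.83 and 2.24 in the controls and 2.96, 2.80 and 2.84 at 4 h. Tmem98 had TE changes of 0.07, 0.21 and 0.07 and an RNA change of -0.21. Lars2, a mitochondrial leucyl-tRNA synthetase, was the most abundant footprint gene in control 3 (1.19% of reads), 4 h number 2 (1.3%) and 4 h number 3 (1.27%). No source used here says how reads that match several places were counted, so its TE changes of -0.31, -0.24 and 0.02 are uncertain.

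Egln2 was the 1 of those 3 with higher footprints and lower RNA. It encodes a prolyl hydroxylase that marks the hypoxia-inducible factor for degradation. Footprints stood at 1.26, 1.49 and 1.33 in the controls and 1.38, 1.81 and 1.58 at 4 h, and its RNA signal was 4.16, 4.04 and 3.92 in the controls and 3.97, 3.576 and 3.53 at 4 h. RNA at 4 h number 1 lay above control 3, so the groups overlapped in RNA, although each pair was lower. The TE change of 0.24 ± 0.10 (SD, n = 3) had an unadjusted p of 0.000665 and an adjusted p of 0.725 in limma with the block. Idi1, an isomerase of cholesterol synthesis, went the other way. Its footprints were 3.34, 3.80 and 3.49 in the controls and 3.26, 3.16 and 3.28 at 4 h, its RNA 2.85, 3.05 and 2.82 and then 3.22, 3.08 and 3.44, and its TE change was -0.22 ± 0.06. Mob1b, a scaffold of the Hippo pathway, had a TE change of -0.21 ± 0.13.

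**Figure D2:**
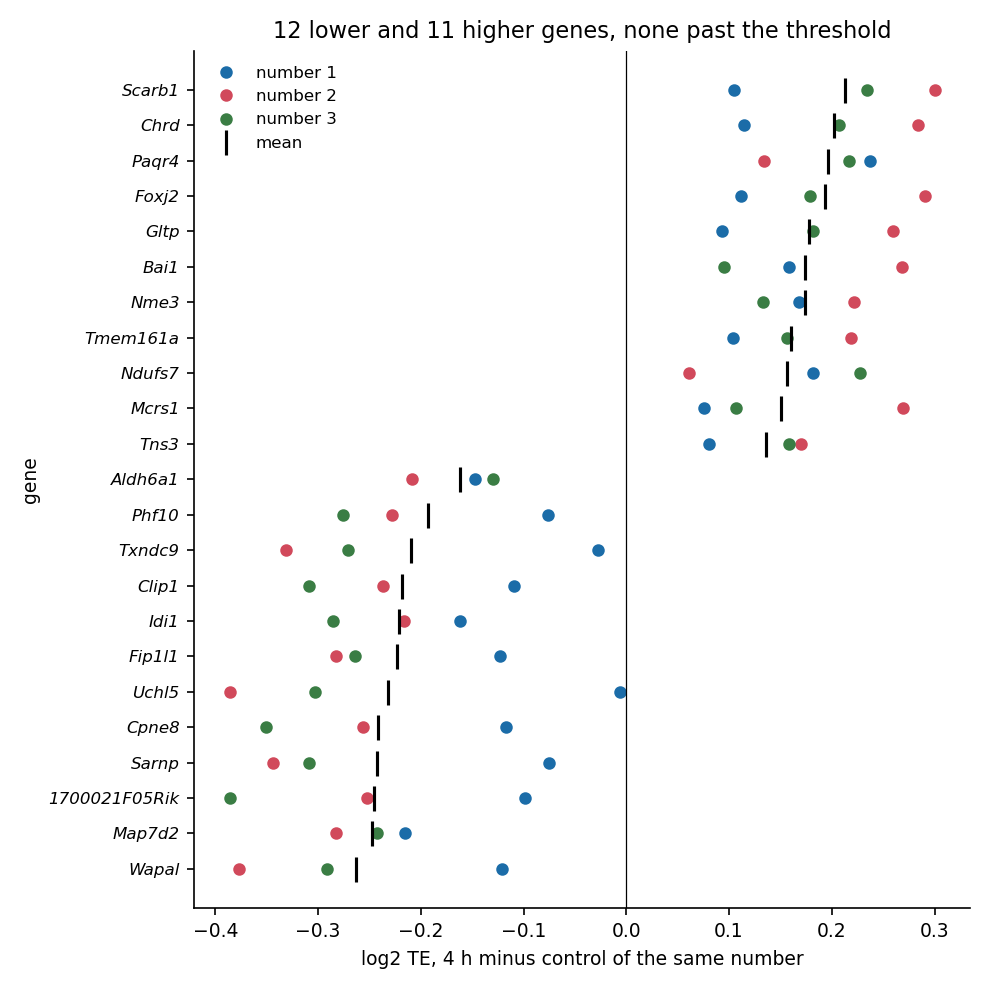
TE change (x, log2, 4 h minus control) in each pair for 12 lower and 11 higher genes from those with the smallest unadjusted p under the block among those with 1 direction in 3 of 3 pairs and no overlap of the TE values. Points are the 3 replicate numbers and the bar is their mean; Wapal is lowest at -0.26 and Scarb1 highest at 0.21, and none of the 23 passed the threshold.

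The genes nearest to the threshold were named by direction of TE, and none passed. Of the 12 with the smallest unadjusted p among those with lower TE in every pair and no overlap, Wapal came first. It encodes WAPL, which releases cohesin from chromatin. Its RNA signal was 7.12, 6.17 and 5.29 in the controls and 7.87, 7.23 and 6.45 at 4 h, and its footprints were 3.11, 2.84 and 2.79 and then 3.13, 2.39 and 2.67. The log2 TE went from -0.98, -0.90 and -0.73 to -1.1, -1.28 and -1.02, a change of -0.26 ± 0.13 (SD, n = 3; limma with the block, unadjusted p = 0.00029, adjusted p = 0.725).

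Map7d2, a microtubule-associated protein of neurons, had the most even change of the 12. Its RNA was 6.85, 6.16 and 5.55 in the controls and 8.12, 6.88 and 6.71 at 4 h, while footprints were 7.01, 6.43 and 6.73 in the controls and 7.01, 5.72 and 6.69 at 4 h. The TE changes were -0.22, -0.28 and -0.24. Sarnp, an mRNA export protein, had a TE change of -0.24 ± 0.15, Cpne8, a calcium-dependent membrane-binding copine, -0.24 ± 0.12, and Fip1l1, a factor of mRNA polyadenylation, -0.22 ± 0.09 (SD, n = 3 each). Clip1, a protein of growing microtubule ends, was the member with the largest footprint part: its footprints changed by -0.15 and its RNA by 0.07, and its TE by -0.22 ± 0.10. Phf10, a subunit of the BAF chromatin remodeller, had a TE change of -0.19 ± 0.10. Uchl5 (-0.23 ± 0.20) and Txndc9 (-0.21 ± 0.16) had changes near 0 in pair 1, at -0.01 and -0.03. The remaining members were 1700021F05Rik, Idi1 and Aldh6a1, a mitochondrial dehydrogenase with a TE change of -0.16 ± 0.04.

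In all 12, RNA was higher and footprints lower on the mean, beside a median RNA change of 0.03 over all genes. The 12 were chosen for lower TE, which higher RNA and lower footprints both produce. This make-up therefore follows in part from the choice. The RNA changes ran from 0.07 in Clip1 to 0.20 in Map7d2, and the footprint changes from -0.15 in Clip1 to -0.03 in Txndc9.

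Among the 12 with higher TE, Scarb1, a receptor for high density lipoprotein, came first. Footprint values were 1.58, 1.53 and 1.59 in the controls and 1.61, 1.84 and 1.75 at 4 h, and its RNA was 1.24, 1.20 and 1.41 and then 1.1, 1.01 and 1.17. Neither range of footprints nor of RNA crossed between the groups. The log2 TE went from 0.20, 0.20 and 0.11 to 0.31, 0.50 and 0.34, a change of 0.21 ± 0.10 (SD, n = 3; limma with the block, unadjusted p = 0.00157, adjusted p = 0.725). Chrd, the BMP antagonist chordin, differed from it in composition: its footprints were 1.29, 1.32 and 1.29 in the controls and 1.62, 1.73 and 1.58 at 4 h, a change of 0.20, while its RNA changed by less than 0.01 and its TE by 0.20 ± 0.08. Foxj2, a forkhead transcription factor, had TE changes of 0.11, 0.29 and 0.18 and a footprint change of 0.13. Ndufs7, a core subunit of respiratory complex I, had a TE change of 0.16 ± 0.09 with an RNA change of -0.15 and a footprint change of 0.01. Other members were Paqr4 (0.20 ± 0.06), Gltp (0.18 ± 0.08), Bai1 (0.17 ± 0.09), Nme3 (0.17 ± 0.04), Tmem161a (0.16 ± 0.06), Mcrs1 (0.15 ± 0.10) and Tns3 (0.14 ± 0.05).

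The translation machinery had lower TE on the mean of the pairs, by an amount that rested on pair 2. Of 71 genes for cytosolic ribosomal proteins that passed the filter, of 76 measured and 83 listed, TE was lower in 3 of 3 pairs for 28 and higher in 3 of 3 for 0, beside 22.8% and 12% of all genes. The median TE change was -0.09, against -0.02 over all genes, with a median footprint change of -0.07 and a median RNA change of 0.04. Pair 2 set the size of this value: the medians of pairs 1, 2 and 3 were -0.03, -0.24 and -0.04, and without number 2 the median was -0.04, beside -0.06 for chaperones and -0.10 for choroid plexus genes. In pair 2, TE was lower for 67 of the 71 genes, in pair 1 for 48 and in pair 3 for 42. The summed RNA signal of these genes was 1423.5, 1452.7 and 1529.9 in the controls and 1390.8, 1628.6 and 1534.7 at 4 h, so the 4 h library of number 2 was the highest. Their summed footprint signal was 685.85, 751.87 and 811.91 in the controls and 652.43, 710.01 and 785.5 at 4 h, lower in each pair. Ribosomal protein genes have many near-identical copies in the genome, and their values are uncertain for that reason.

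**Figure D3:**
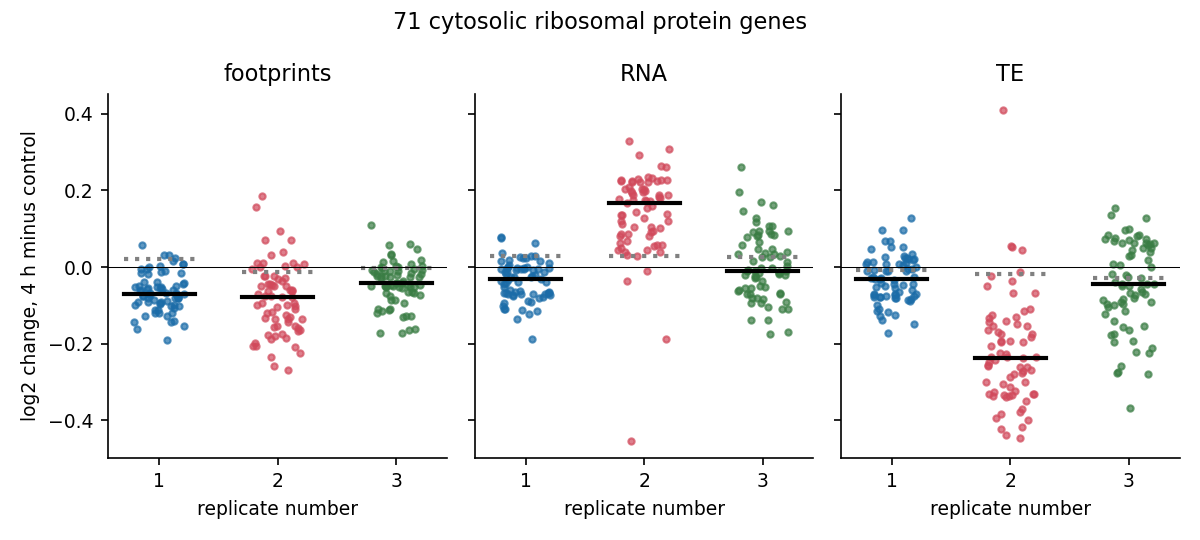
Change at 4 h (y, log2, 4 h minus control) of footprints, RNA and TE in 71 cytosolic ribosomal protein genes for each replicate number (x). Each point is 1 gene, the black bar is the median of these genes and the dotted bar the median of all genes tested; median TE is -0.03, -0.24 and -0.04, and the RNA of pair 2 lies highest.

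Most single ribosomal genes named here were picked for large TE changes with 1 direction in every pair, so they do not stand for the list. Over the 71 genes the median RNA change was -0.03, 0.17 and -0.01 in pairs 1, 2 and 3. Rpl39, the member with the lowest mean TE change (-0.24 ± 0.10, SD, n = 3), had RNA signals of 10.3, 12.1 and 13.6 in the controls and 10.9, 15.2 and 14.6 at 4 h, and footprints of 6.19, 5.99 and 10.1 and then 5.94, 5.87 and 8.93. Its TE changes were -0.13, -0.33 and -0.26. At 4 h, 5 of the 71 genes had log2 TE wholly below the controls, beside 4.01% of all genes. Rps20 was among them: its log2 TE was -1.63, -1.65 and -1.50 in the controls and -1.77, -1.90 and -1.69 at 4 h, with footprints of 4.53, 4.49 and 5.33 and then 3.85, 4.27 and 4.66. Rps6, the subunit phosphorylated downstream of mTOR, had RNA signals of 37.5, 37.7 and 39.3 in the controls and 37.3, 44.1 and 41.7 at 4 h, and TE changes of -0.04, -0.30 and -0.12. Rpl3 (-0.13 ± 0.09), Rps27a (-0.24 ± 0.15), Rpl23 (-0.21 ± 0.17), Rpl21 (-0.20 ± 0.08), Rpl5 (-0.20 ± 0.21) and Rps24 (-0.22 ± 0.16) were lower in every pair (SD, n = 3). Rps16, named after its values were seen, went far above the others in pair 2, at 0.41, with 0.02 and -0.27 in pairs 1 and 3.

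Elongation factors and other TOP mRNAs were alike. TE was lower in 3 of 3 pairs for 8 of 18 genes (44.4%, beside 22.8% of all genes) and higher for 0 (beside 12%). Their median was -0.11, or -0.05 without number 2. Eef1a1, which brings aminoacyl-tRNA to the ribosome, had footprints of 39.0, 38.9 and 42.7 in the controls and 37.8, 36.8 and 41.1 at 4 h, RNA of 83.3, 80.2 and 83.3 and then 82.3, 86.4 and 85.8, and a TE change of -0.10 ± 0.08. Npm1, a nucleolar chaperone of ribosome assembly, had TE changes of -0.08, -0.33 and -0.13. Nap1l1 (-0.16 ± 0.05) and Btf3 (-0.15 ± 0.11) were lower in every pair too, and the log2 TE of Eef1b2, a nucleotide exchange factor for Eef1a1, went from -0.02, 0.00 and -0.01 to -0.06, -0.14 and -0.16 without overlap. Eef2, the translocase of elongation, differed in direction between pairs, with TE changes of 0.08, -0.17 and 0.09. The mitochondrial ribosome, which has no TOP mRNAs of the cytosolic kind, had a median of -0.01 over 59 genes. In 3 of 3 pairs 15 were lower (25.4%) and 6 higher (10.2%), near the shares of all genes.

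The annotated starts of these genes are shown because the TOP tract lies at the 5′ end of the mRNA. The 30 bases around the RefSeq start (15 on either side, GRCm38.p6, written 5′ to 3′ on the gene's strand) are given for 9 members that were lower in every pair, with the longest unbroken run of C and T in capitals. The first 5 held a run of at least 7 pyrimidines and the last 4 did not.
Rps6, chr4:86857353-86857382, minus strand: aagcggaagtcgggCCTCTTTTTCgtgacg
Rps24, chr14:24490663-24490692, plus strand: cccgcgctggggTCCTTCCTTgcgcgttga
Rpl39, chrX:37085208-37085237, minus strand: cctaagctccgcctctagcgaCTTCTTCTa
Eef1a1, chr9:78481710-78481739, minus strand: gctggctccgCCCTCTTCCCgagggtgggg
Nap1l1, chr10:111473212-111473241, plus strand: ggcgggctctcgggTCTTTTTTagcgccat
Rpl23, chr11:97782425-97782454, minus strand: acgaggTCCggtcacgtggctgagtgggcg
Rpl5, chr5:107900513-107900542, plus strand: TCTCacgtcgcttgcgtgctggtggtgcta
Btf3, chr13:98316992-98317021, minus strand: tgaaTTCTggaggaagtggcgtcgcgttac
Eef1b2, chr1:63176816-63176845, plus strand: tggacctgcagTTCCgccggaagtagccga
Of the ribosomal genes tested, 52 were found in the RefSeq table, and 26 of them (50.0%) held a run of at least 7 pyrimidines in this window, beside 17.6% of the 5397 genes tested that were found and 18.5% of all 27025 genes of the table. On the other strand the shares were 3.85%, 17% and 19.9%. Among ribosomal genes the median TE change was -0.09 with such a run and -0.11 without, and over all genes tested the medians were -0.02 and -0.02. Rpl23, Rpl5, Btf3 and Eef1b2, which belong to the TOP classes named above, fell among the genes without a run. The window thus does not separate mRNAs with a TOP tract from those without, and no conclusion on the tract is drawn from these medians.

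Initiation factors had lower TE in 3 of 3 pairs for 11 of 33 genes (33.3%, beside 22.8% of all genes) and higher for 1 (3.03%, beside 12%). With centred libraries 8 were lower and 2 higher. Their median was -0.04, with pair medians of -0.03, -0.08 and -0.09. Eif4a2, a helicase of the cap-binding complex, had TE changes of -0.11, -0.36 and -0.14. Eif1ax, which scans for the start codon, had log2 TE of 0.57, 0.54 and 0.72 in the controls and 0.34, 0.45 and 0.47 at 4 h, without overlap. Eif2s1, the alpha subunit of eIF2 and the target of stress kinases, had a TE change of -0.19 ± 0.08, and Eif2a one of -0.19 ± 0.06 (SD, n = 3).

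RNA-binding regulators of translation were lower in 8 of 27 (29.6%, beside 22.8% of all genes) and higher in 0 (beside 12%). With centred libraries 6 were lower and 1 higher. Their median was -0.06, with -0.03, -0.04 and -0.07 in pairs 1, 2 and 3, so pair 3 was lowest in this list. Fmr1, which encodes the fragile X protein, a repressor of synaptic mRNA translation, had RNA of 4.40, 3.80 and 3.00 in the controls and 4.77, 3.94 and 3.59 at 4 h, footprints of 2.46, 1.94 and 1.84 and then 2.42, 1.68 and 1.75, and TE changes of -0.11, -0.18 and -0.24. Its relative Fxr1 (-0.15 ± 0.05), the dendritic transport factor Stau2 (-0.19 ± 0.10) and the polyadenylation regulator Cpeb4 (-0.13 ± 0.10) were lower in every pair. Chaperones were lower in 11 of 31 (35.5%) and higher in 3 (9.68%), with a median of -0.07, and centred libraries gave 9 lower and 4 higher. Hspa9, the mitochondrial Hsp70, had log2 TE of 0.57, 0.53 and 0.70 in the controls and 0.50, 0.37 and 0.44 at 4 h. Proteasome subunits were lower in 8 of 32, a share of 25.0% that is near the 22.8% of all genes, and higher in 1 (3.12%, beside 12%). With centred libraries 5 of them were lower and 3 higher. Their pair medians were -0.00060, -0.07 and -0.07.

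**Figure D4:**
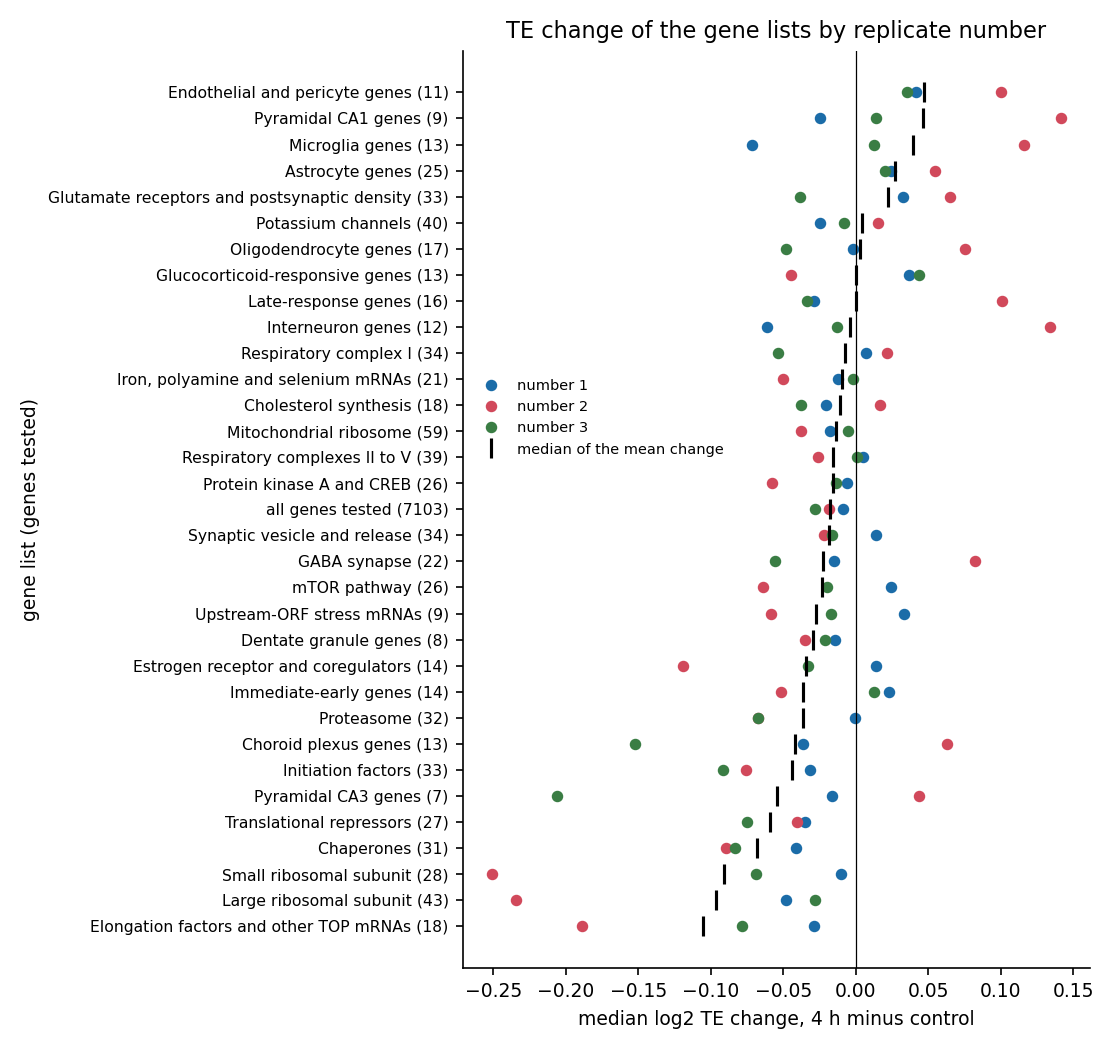
Median TE change at 4 h (x, log2) of each gene list with 7 or more genes tested (y, number of genes in brackets). Points are the medians in the 3 pairs and the bar is the median of the mean change; elongation factors and ribosomal subunits lie lowest, near -0.10, and pair 2 lies farthest from 0 there.

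The same lists at the earlier times, measured against the same controls, are given side by side. The median TE change of ribosomal genes was -0.09 at 5 min, -0.03 at 10 min, 0.02 at 30 min and -0.09 at 4 h. At 5 min TE was lower in 3 of 3 pairs for 45 of the 71 genes and higher for 0, beside 22.7% lower and 14.8% higher of all genes. At 10 min 22 were lower and 5 higher, beside 24.2% and 7.18%. At 30 min 3 were lower and 10 higher, beside 17.3% and 8.35%. The pair medians at 5 min were -0.05, -0.09 and -0.11, closer together than at 4 h.

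mTOR pathway genes, which act on TOP mRNAs, were lower in 7 of 26 (26.9%) and higher in 3 (11.5%), near the 22.8% and 12% of all genes. Mtor itself was higher: its log2 TE was 0.59, 0.61 and 0.51 in the controls and 0.63, 0.74 and 0.67 at 4 h, without overlap, with a footprint change of 0.16 and an RNA change of 0.05. mRNAs with upstream open reading frames that respond to stress gave 2 lower (22.2%) and 1 higher (11.1%) of 9, also near those shares. The higher one was Atf4, the transcription factor of the integrated stress response, whose log2 TE was -1.0, -0.96 and -0.96 in the controls and -0.91, -0.76 and -0.93 at 4 h (0.10 ± 0.09, SD, n = 3; adjusted p = 0.846 in limma with the block). Its footprint signal was 2.24, 2.60 and 2.43 and then 2.11, 2.85 and 2.42, while its RNA went from 5.46, 6.01 and 5.66 to 4.86, 5.55 and 5.54. Azin1, a polyamine regulator, had a TE change of -0.15 ± 0.08 without overlap.

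Activity-regulated genes gave no common direction of TE. Of 14 immediate-early genes tested, TE was higher in 3 of 3 pairs for 5 (35.7%, beside 12% of all genes) and lower for 3 (21.4%, beside 22.8%). Their median TE change was -0.04. Egr1, a zinc finger transcription factor, had footprints of 6.88, 6.27 and 7.57 in the controls and 7.04, 6.32 and 5.99 at 4 h and RNA of 1.37, 1.22 and 1.39 and then 1.22, 1.06 and 0.887, with TE changes of 0.12, 0.11 and 0.05. Arc, which acts on AMPA receptor endocytosis, had TE changes of -0.01, -0.19 and 0.05, and Junb, a partner of Fos, had 0.00, -0.16 and -0.04. The 16 late-response genes had a median footprint change of 0.11, a median RNA change of 0.08 and a median TE change that rounds to 0.00. Their footprint medians were 0.09, 0.26 and 0.00 in pairs 1, 2 and 3, so that of pair 3 was close to 0, and none of the genes passed a test. Ptgs2, the inducible cyclooxygenase, had footprints of 4.30, 3.04 and 4.03 in the controls and 5.41, 4.10 and 4.62 at 4 h, RNA of 2.51, 1.69 and 2.26 and then 2.90, 2.33 and 2.57, and TE changes of 0.12, 0.03 and 0.03.

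Nptx2, a secreted pentraxin of excitatory synapses, had footprints of 4.32, 4.67 and 4.32 in the controls and 5.11, 5.96 and 5.06 at 4 h, without overlap, and TE changes of 0.18, -0.01 and 0.11. Homer1, a postsynaptic scaffold, was higher in RNA by 0.17 and in footprints by 0.11, with a TE change of -0.06 ± 0.03. Bdnf, the neurotrophin, had RNA of 3.80, 3.43 and 3.78 in the controls and 4.47, 3.93 and 3.91 at 4 h and footprints of 4.23, 4.27 and 4.47 and then 4.74, 4.98 and 4.69. Both ranges were higher at 4 h without overlap, and the TE changes were -0.05, 0.03 and 0.02. Camk2a, the kinase of synaptic plasticity whose mRNA lies in dendrites, had TE changes of 0.11, -0.04 and 0.09. Nrsn1, a neuronal membrane protein, had 0.02, 0.04 and -0.15. None of these genes passed a test in footprints, RNA or TE.

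Synaptic lists had both directions. Of 22 genes of the GABA synapse, 4 were higher in 3 of 3 pairs (18.2%, beside 12% of all genes) and 1 lower (4.55%, beside 22.8%). Their median TE change was -0.02. Gabrd, the delta subunit of extrasynaptic GABA-A receptors, had log2 TE of 0.81, 0.75 and 0.73 in the controls and 0.93, 0.94 and 0.86 at 4 h, without overlap. Slc32a1, the vesicular GABA transporter, had a TE change of 0.11 ± 0.03. Of 33 glutamate receptor and postsynaptic density genes, 4 were higher (12.1%) and 3 lower (9.09%). Cacng8, an auxiliary subunit of AMPA receptors, had a change of 0.08 ± 0.01 (SD, n = 3). Of 40 potassium channels, 5 were higher (12.5%) and 5 lower (12.5%), and Kcnj2 is described above.

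Cell type lists were described beside these because bulk tissue mixes cells, and in it fewer cells of a type and less RNA per cell cannot be told apart. Astrocyte genes were higher in 3 of 3 pairs for 7 of 25 (28.0%, beside 12% of all genes) and lower for 0 (beside 22.8%). With centred libraries 12 were higher and 0 lower. Their median TE change was 0.03, with pair medians of 0.02, 0.05 and 0.02. Ntsr2, a neurotensin receptor of astrocytes, had TE changes of 0.14, 0.23 and 0.05, and Cst3, a secreted protease inhibitor, 0.04, 0.13 and 0.08. The summed signal of the list was 2151, 1652 and 1930 in control footprints and 2187, 2042 and 2011 at 4 h, and in RNA 1286, 934.9 and 1073 and then 1317, 1102 and 1156. Control 2 was the lowest in both kinds. A raised share of higher genes was not particular to astrocytes. Oligodendrocyte genes gave 5 higher of 17 (29.4%) and 3 lower, and endothelial and pericyte genes 3 of 11 (27.3%) and 1 lower. CA1 genes gave 3 of 9 (33.3%) and 1 lower, and microglial genes 2 of 13 (15.4%) and 0 lower. By contrast, 1 of 7 CA3, 1 of 12 interneuron and 0 of 8 dentate granule genes were higher. Microglial genes had pair medians of -0.07, 0.12 and 0.01, and CA1 genes -0.02, 0.14 and 0.01. Pair 2 was the highest for the microglial and CA1 lists, and the part of cell make-up in the TE values was not tested.

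Choroid plexus genes had larger differences in both kinds than in TE, with medians of -0.52 in footprints, -0.44 in RNA and -0.04 in TE. In pairs 1, 2 and 3 the TE medians were -0.04, 0.06 and -0.15, so pair 2 went against the others in choroid plexus. Ttr, the thyroxine carrier transthyretin and its most abundant product, had footprints of 1534.6, 1546.7 and 107.56 in the controls and 1104.1, 723.79 and 22.429 at 4 h, and RNA of 554.93, 548.79 and 41.33 and then 407.97, 228.79 and 8.0301. Footprints changed by -1.26 ± 0.88 and RNA by -1.31 ± 0.89, and TE by 0.05 ± 0.10 (SD, n = 3). Of the 28 genes with changes of at least 0.2 in both kinds, 20 were lower, and 10 of the 28 belong to the choroid plexus list. Kcnj13 and Folr1, a potassium channel and a folate receptor of that epithelium, had TE changes of -0.22 ± 0.07 and -0.18 ± 0.10, the largest of the list. Both were below 0 in every pair. The 8 that were higher included Gjb6, a gap junction protein of astrocytes, with 0.25 in footprints, 0.21 in RNA and 0.04 in TE.

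Hippocampal primary culture, measured once in each kind without replicates, gave a TE for 6947 of the genes that the rule did not use. Genes with low TE in culture had lower TE changes at 4 h. With these genes split by culture TE into 5 bins of equal size, from lowest to highest, the median TE change was -0.04, -0.03, -0.02, -0.01 and 0.01, and TE was lower in 3 of 3 pairs for 29.9%, 26.3%, 22.9%, 21.0% and 14.5% of the genes. The correlation across these genes was 0.187 for the mean TE change, and 0.11, 0.145 and 0.113 in pairs 1, 2 and 3, which is a weak relation. The median RNA change went from 0.05 through 0.03, 0.02 and 0.02 to 0.01, whereas the median footprint change was between 0.00 and 0.01 in every bin. The culture shares neither libraries nor controls with the tissue, but gene length and sequence composition are the same in both.

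**Figure D5:**
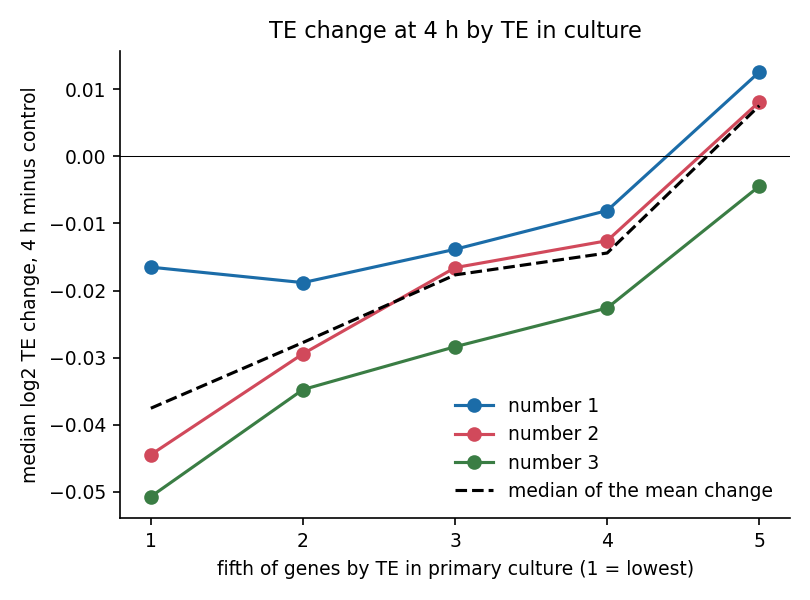
Median TE change at 4 h (y, log2, 4 h minus control) in 5 equal bins of 6947 genes ordered by their TE in hippocampal primary culture (x, 1 is lowest). Lines are the 3 replicate numbers, and the dashed line is the median of the mean change, which goes from -0.04 in the lowest bin to 0.01 in the highest.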

How the data were processed

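The deposited values, called signal here, are whole reads divided by 1 number per library, per the values themselves; no source used here says what the authors' divisor stands for or how they counted reads that match several places. Per the submitters' processing notes, CASAVA 1.8.2 and Bowtie 1.1.1 were used with the mouse build mm9. TE was analysed on log2(signal + 1), which understates fold changes of low genes. limma 3.58.1 in R 4.3.3 fitted 30 tissue libraries in 1 model with the groups of each kind and eBayes with a trend. The TE test was the interaction of kind and group, 2-sided, Benjamini-Hochberg adjusted at 0.05. It was checked on simulated data with changes larger than those seen here and no effect of the replicate number. That check does not show how often changes of the size seen would be called. Replicate numbers paired the samples: deviations from the group mean correlated between 4 h and control of the same number at 0.857, 0.455 and 0.82 (RPF) and 0.81, 0.366 and 0.816 (RNA), so fits with the number as a block are printed where they change a call.

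Named genes were, per direction, the 12 with the smallest unadjusted p under the block among those with 1 direction and no overlap; up to 6 footprint-led, 6 RNA-led and 4 opposite genes; up to 4 members of each of 37 lists; and a set of activity-regulated, translation and control genes. Members, lists and rules were chosen with earlier results of these data known. Alternatives changed the block, the pseudocount, the filter, centring, the samples and the weights. Embryonic stem cell libraries were not used here. Some genes that the naming rule picked are not reported here.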

Additional observations from a re-analysis of the deposited data

How the results depend on the processing

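No gene passed the TE test under any alternative run: the replicate block, voom weights, 12 libraries only, pseudocounts of 0.5 and 0.1, no filter, a mean of at least 5, centred libraries, robust eBayes and each replicate left out. The voom fits and the blocked fits without a number were chosen after seeing the data. edgeR, with and without the block, was planned for raw counts and not run, because the deposited values are not raw counts. The voom fits used whole reads recovered from those values, and edgeR was not run on these reads. Footprint calls were 3 with the replicate block and 3 with voom and the block, and 0 to 2 with the block when each number was left out. RNA calls were 2 with the block, 1 with voom and the block, and 0 to 1 when each number was left out. Centring gave 0.020 for Eef2 and 0.019 for Bdnf. Leaving out single replicates turned the sign of small TE changes, with ranges of -0.0057 to 0.38 for Cspg4, -0.42 to 0.13 for Lars2, -0.22 to 0.0041 for Naa38, -0.13 to 0.22 for Rps16, -0.11 to 0.082 for Eef2, -0.18 to 0.030 for Arc, -0.048 to 0.056 for Bdnf, -0.10 to 0.18 for Camk2a, -0.12 to 0.044 for Nrsn1, -0.014 to 0.17 for Cst3, -0.034 to 0.11 for Ttr, -0.54 to 0.083 for Kcnj13 and -0.455 to 0.12 for Folr1. With the replicate block they were -0.12 for Rps16, 0.082 for Eef2, 0.021 for Arc and -0.0075 for Ttr without number 2, 0.024 for Bdnf without number 1 and 0.029 for Nrsn1 without number 3. The cause of these turns was not tested. Of the list medians under the alternatives, 378 stayed within the spread of the pairs and 66 did not. Depth was lowest in the 4 h footprint library of number 2, where the median gene held 416 reads.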
